A study of Mus musculus with 12 samples.

Results

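This account concerns 10 genes of chemokine and cytokine signalling in mouse embryonic stem cells: the chemokine receptor gene Cxcr6, the chemokine genes Ccl2, Ccl7, Cxcl1, Cxcl5 and Cxcl12, and the cytokine and growth factor genes Il6, Csf1, Tgfb1 and Kitl. They are 10 of the 43346 genes in the deposited count table. The list was chosen by name with earlier results of these data known, and Cxcr6 was selected on its measured level, which is low in both congenic lines. Its level in those lines is therefore a description, with no test. All 10 genes were found, all 10 passed the filter on low counts, and their counts were whole to within 1e-06 in every library, with no sign of reads divided with another gene.

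RNA was sequenced in 12 libraries, 3 from each of 4 groups. B6 (C57BL/6J) and D2 (DBA/2J) are inbred strains. B6-13D2 (B6.D2-(rs30079041-rs51756099)/Bakr) is congenic: a stretch of chromosome 13 comes from D2 and the background from B6. D2-13B6 (D2.B6-(rs29224292-rs13469455)/Bakr) is the reciprocal line, with the B6 stretch on the D2 background; the design text of the series gives rs51756099 as the end of its stretch. Cells of all 4 groups grew in serum medium with LIF (leukaemia inhibitory factor), PD0325901 (an inhibitor of the kinase MEK) and CHIR99021 (an inhibitor of the kinase GSK3), and none received a further treatment. By the protocol each strain is 1 cell line sampled as independent cultures, while the titles speak of technical replicates, so p-values measure only the spread between these cultures, and strain and line cannot be told apart. The titles give B6 replicate 3 another line (B6 4-1) than B6 replicates 1 and 2 (B6 5-1). The D2 titles and the D2 cell line field also name different lines. In the table the congenic columns carry a prefix that the parental columns lack, and whatever that prefix stands for is confounded with being congenic, so the effects cannot be told apart.

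Chemokines are small secreted proteins that attract cells along a gradient and act through G protein-coupled receptors. Many are made by stromal cells such as fibroblasts and sensed by leukocytes. Cxcr6 is known from T cells and natural killer T cells and binds Cxcl16, a chemokine that can stay tethered to the membrane. Il6 signals through the receptor subunit gp130 (Il6st), which also serves the LIF in the medium. Csf1 drives the growth of macrophages. Tgfb1 is secreted in a latent complex, and Kitl, also called stem cell factor, is the ligand of the receptor tyrosine kinase Kit.

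Promoter sequence is shown for the members that carry the letters of an NF-kB site, because inducible chemokine and cytokine genes are known targets of this factor, and for Cxcr6, which carries none. RefSeq promoter windows (GRCm38.p6, 250 bases before to 50 after the annotated start) existed for 7 of the 10 genes: Cxcr6, Cxcl1, Cxcl12, Il6, Csf1, Tgfb1 and Kitl. Ccl2, Ccl7 and Cxcl5 had no entry. The letters GGGA, 1 base of any kind and TTTCC, searched on both strands as all motifs here, lay in 3 of these 7 windows (Cxcl1, Il6 and Csf1) and in 0.415% of all 32544 windows. Capitals below mark the match in a stretch of 100 bases, written 5′ to 3′ on the strand of the gene: chr5:90891135-90891234 (plus strand) for Cxcl1, chr5:30013004-30013103 (plus) for Il6, chr3:107760550-107760649 (minus) for Csf1 and chr9:123806367-123806466 (plus) for Cxcr6.
Cxcl1: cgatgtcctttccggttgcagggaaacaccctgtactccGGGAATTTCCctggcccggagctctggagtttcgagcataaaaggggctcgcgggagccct
Il6: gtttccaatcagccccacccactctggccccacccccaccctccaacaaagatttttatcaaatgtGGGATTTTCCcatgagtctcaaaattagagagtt
Csf1: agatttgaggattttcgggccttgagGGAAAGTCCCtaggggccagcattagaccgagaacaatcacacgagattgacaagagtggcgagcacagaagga
Cxcr6: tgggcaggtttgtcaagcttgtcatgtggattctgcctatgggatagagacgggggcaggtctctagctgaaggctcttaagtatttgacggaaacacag

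The match begins 71 bases before the start in Cxcl1, 44 in Il6 and 154 in Csf1. The letters TGANTCA, an AP-1 element, lay in the Il6 window and in 7.79% of all windows. GGGCGG, an Sp1 element, lay in the windows of Csf1, Cxcl12, Tgfb1 and Kitl and in 35.9% of all windows. TATAAA lay in the Kitl window and in 13.6% of all windows, and TTCNNNGAA, the letters of a STAT element, in none of the 7 and in 8.33% of all windows. No NF-kB match overlapped a match of another motif. These are descriptions of letters, since binding was not measured.

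Libraries held 22184196 to 36411799 expected counts (read numbers estimated by an expectation-maximization method). Levels are given as CPM, counts scaled to a common library total with TMM factors. The labelled cell type was checked first. The 8 embryonic stem cell markers (Pou5f1, Sox2, Nanog, Esrrb, Klf4, Zfp42, Tdgf1 and Dppa5a) were all expressed, and their summed level was 4289 to 4657 CPM in the B6 libraries and 3068 to 3150 in D2. In B6-13D2 it was 4907 to 5231 CPM and in D2-13B6 3856 to 3923. The 10 fibroblast (feeder cell) markers (Col1a1, Col1a2, Col3a1, Thy1, Pdgfrb, Postn, Lum, Dcn, Col6a3 and Acta2) summed to 10740 to 11584 CPM in B6 and 16172 to 19179 in D2, with 3491 to 3575 in B6-13D2 and 8813 to 9158 in D2-13B6. Whether feeder cells were present is not given in the sources used here. Macrophage markers (9 genes) summed to 38.0 to 134 CPM over all libraries and T cell markers (6 genes, of which Cd8a was too low to test) to 14.8 to 26.7. In these bulk samples fewer cells of a type and less RNA per cell cannot be told apart.

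Across the 10 genes the groups stood in a common pattern, drawn in the plot of levels by library. D2 had the highest mean and B6-13D2 the lowest mean for every member. For Cxcr6, Ccl2, Ccl7, Cxcl1, Cxcl12, Il6 and Csf1 the order was D2, B6, D2-13B6, B6-13D2. For Cxcl5, Tgfb1 and Kitl, D2-13B6 stood above B6. The mean over all libraries per kilobase of annotated exon, the scale on which genes can be compared, was highest for Ccl7 (12.6 CPM per kilobase) and Csf1 (11.8). It was 6.41 for Ccl2, 4.09 for Tgfb1, 3.46 for Cxcr6, 1.82 for Cxcl5 and 1.70 for Cxcl12. Cxcl1 (0.842), Kitl (0.765) and Il6 (0.238) were the lowest. Ccl7 and Csf1 were highest and Il6 lowest in every group, but the order otherwise depended on the group. Csf1 stood above Ccl7 in B6 (13.4 against 13.0) and D2-13B6 (10.3 against 9.31). Cxcr6 stood above Tgfb1 in B6 (5.05 against 3.99), and Kitl above Cxcl1 in D2-13B6 (1.02 against 0.787).

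**Figure D1:**
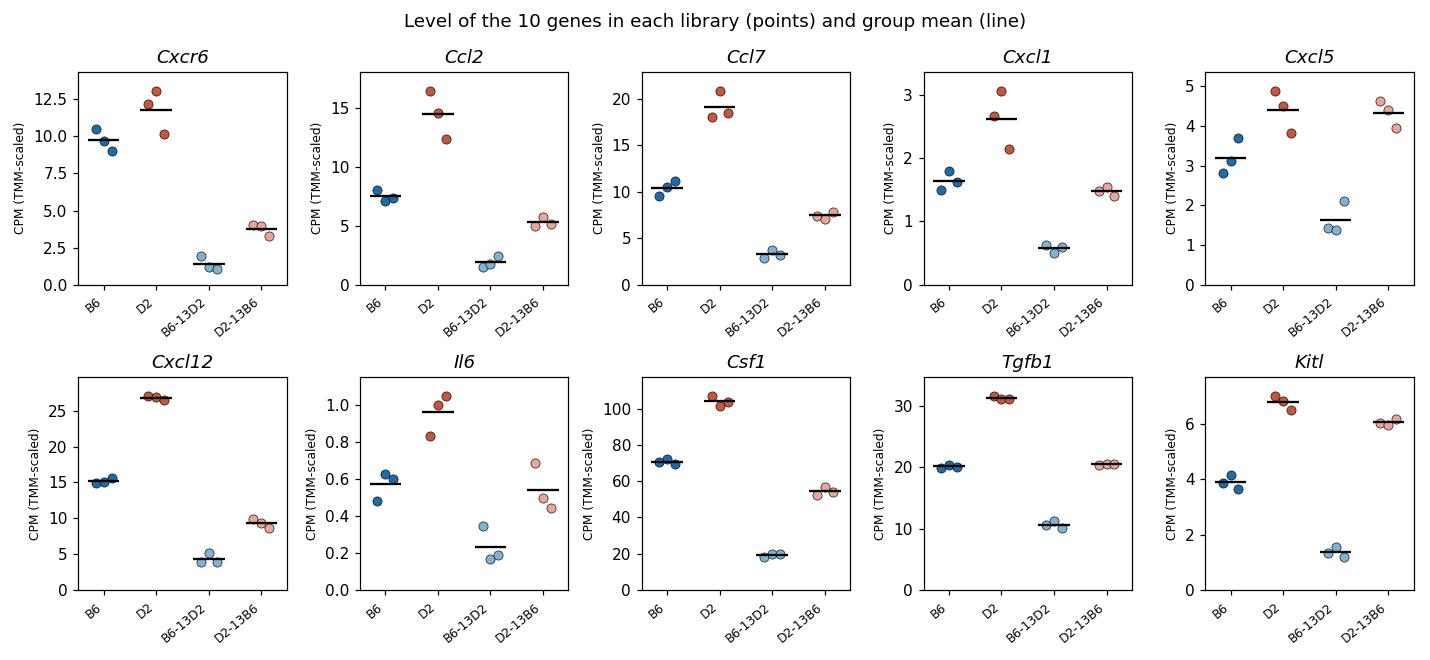
Level of each of the 10 genes (vertical axis, TMM-scaled CPM, starting at 0 and scaled per gene) in the 4 groups. Points are libraries and the line is the mean of 3; D2 has the highest and B6-13D2 the lowest mean in every panel, while D2-13B6 lies above B6 for Cxcl5, Tgfb1 and Kitl.

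Cxcr6 (ENSMUSG00000048521, chr9:123806475-123811760, plus strand) stood at 10.5, 9.70 and 9.05 CPM in the B6 libraries and at 12.2, 13.0 and 10.2 in D2. It stood at 1.9, 1.21 and 1.09 CPM in B6-13D2 and at 4.03, 3.96 and 3.27 in D2-13B6. The parental groups overlapped, the congenic groups did not overlap each other, and every congenic library lay below every parental one. The means were 9.75 ± 0.727 CPM in B6 and 11.8 ± 1.49 in D2, with 1.40 ± 0.438 in B6-13D2 and 3.75 ± 0.421 in D2-13B6 (SD, n = 3 each). The level in B6-13D2 was 6.90-fold below B6 (log2 fold change -2.79, SE 0.165) and that in D2-13B6 3.15-fold below D2 (-1.65, SE 0.132), as a description. The summed T cell markers were 16.7 to 17.6 CPM in B6, 14.8 to 15.9 in the D2 libraries, 25.2 to 26.7 in B6-13D2 and 17.7 to 18.7 in D2-13B6. Of the 5 T cell markers tested, 2 (Cd3e and Lck) were called higher and none lower in B6-13D2 than in B6, where 25.4% of tested genes were called higher and 32.9% lower. Against D2, the D2-13B6 libraries had 2 called higher (Cd3e and Cd3g) and 2 called lower (Cd4 and Lck), beside 27.6% and 29.7% of tested genes. Among the B6-13D2 libraries replicate 1 had the highest Cxcr6 level, and without it the difference from B6 was -3.07. D2-13B6 stood above B6-13D2 by 1.42 (SE 0.180), also as a description, and by 1.70 without that library. D2 stood above B6 by 0.29 (SE 0.123), with an adjusted p of 0.0535 (edgeR's quasi-likelihood test) that misses the threshold of 0.05. Of 18 alternative analyses of that difference, 9 passed the threshold, with adjusted p from 0.0125 to 0.245 over all of them. They include DESeq2 (0.0330) and the fits without D2 replicate 3, B6-13D2 replicate 1 or B6-13D2 replicate 3.

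Ccl2 and Ccl7 are CC chemokines that attract monocytes, and their genes are neighbours on chromosome 11 (chr11:82035571-82037453 and chr11:82045712-82047525). Ccl2 stood at 8.04, 7.13 and 7.37 CPM in B6, at 16.4, 14.6 and 12.4 in D2, at 1.49, 1.78 and 2.45 in B6-13D2 and at 4.99, 5.78 and 5.17 in D2-13B6. No group overlapped another. Ccl2 rose in D2 against B6 by 0.95 (log2 fold change, SE 0.119, adjusted p = 2.35e-06). It fell in B6-13D2 against B6 by 1.99 (SE 0.157, adjusted p = 4.90e-09) and in D2-13B6 against D2 by 1.44 (SE 0.119, adjusted p = 1.04e-08).

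Ccl7 stood at 9.53, 10.5 and 11.1 CPM in B6, at 18.1, 20.8 and 18.5 in D2, at 2.84, 3.72 and 3.25 in B6-13D2 and at 7.43, 7.08 and 7.86 in D2-13B6. Its groups did not overlap either, and their order was that of Ccl2. It rose in D2 against B6 by 0.88 (SE 0.087, adjusted p = 1.08e-07) and fell by 1.67 in B6-13D2 against B6 and by 1.37 in D2-13B6 against D2. In the last comparison the 1386 tested genes of chromosome 11 had a median log2 fold change 0.42 above that of the other autosomes. Ccl2 and Ccl7 fell there while their chromosome stood high, and the part of that shift in their values was not tested. In D2 against B6 and in B6-13D2 against B6 the chromosome's median was within 0.033 of the others. In D2-13B6 against B6-13D2 it stood 0.37 above them, and the part of that shift in the values of Ccl2 and Ccl7 was not tested.

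Cxcl1 and Cxcl5 are CXC chemokines that attract neutrophils through Cxcr2, and both genes lie on chromosome 5 (chr5:90891241-90893115 and chr5:90759360-90761624). Cxcl1 stood at 1.49, 1.80 and 1.63 CPM in B6, at 2.67, 3.06 and 2.14 in D2, at 0.623, 0.503 and 0.604 in B6-13D2 and at 1.48, 1.55 and 1.39 in D2-13B6. B6 and D2-13B6 overlapped, D2 lay above both and B6-13D2 below both. Cxcl1 rose by 0.69 in D2 against B6 (SE 0.191, adjusted p = 0.00506). It fell by 1.51 in B6-13D2 against B6 (adjusted p = 2.16e-05) and by 0.84 in D2-13B6 against D2 (adjusted p = 0.000839).

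Cxcl5 stood at 2.81, 3.11 and 3.69 CPM in B6, at 4.87, 4.51 and 3.82 in D2, at 1.42, 1.38 and 2.11 in B6-13D2 and at 4.63, 4.40 and 3.95 in D2-13B6. It was thus low in 1 congenic line: the libraries of D2-13B6 lay within the range of D2. The difference of -0.03 between them (SE 0.151, adjusted p = 0.901) turned to 0.06 without D2 replicate 1 and to 0.03 without D2-13B6 replicate 3. Cxcl5 fell by 0.98 in B6-13D2 against B6 (SE 0.184, adjusted p = 0.000184). Its rise in D2 against B6 (0.46, SE 0.163, adjusted p = 0.0209) missed the threshold without B6 replicate 1 (0.0834), B6 replicate 2 (0.0539), D2 replicate 1 (0.0717) or D2 replicate 2 (0.0572).

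Cxcl12 (chr6:117168535-117181367) guides blood progenitors and germ cells and binds Cxcr4 and the atypical receptor Ackr3. It stood at 15.0, 15.1 and 15.6 CPM in B6, at 27.0, 27.0 and 26.5 in D2, at 3.88, 5.10 and 3.89 in B6-13D2 and at 9.90, 9.38 and 8.71 in D2-13B6. The groups were far apart compared with their spread, and none overlapped. Cxcl12 rose by 0.82 in D2 against B6 (SE 0.073, adjusted p = 3.18e-08). It fell by 1.82 in B6-13D2 against B6 (SE 0.092, adjusted p = 1.00e-11) and by 1.52 in D2-13B6 against D2 (SE 0.074, adjusted p = 1.11e-11).

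Csf1 (chr3:107741048-107760469, minus strand) stood at 70.8, 72.1 and 69.2 CPM in B6, at 107, 102 and 103 in D2, at 18.0, 20.1 and 19.9 in B6-13D2 and at 52.4, 56.9 and 54.0 in D2-13B6. No group overlapped another. Csf1 rose by 0.55 in D2 against B6 (SE 0.043, adjusted p = 5.12e-09). It fell by 1.87 in B6-13D2 against B6 (SE 0.050, adjusted p = 1.78e-15) and by 0.93 in D2-13B6 against D2 (SE 0.042, adjusted p = 5.19e-12).

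Tgfb1 (chr7:25687002-25705077) stood at 19.9, 20.4 and 20.0 CPM in B6, at 31.5, 31.1 and 31.0 in D2, at 10.6, 11.2 and 10.1 in B6-13D2 and at 20.3, 20.6 and 20.5 in D2-13B6. B6 and D2-13B6 overlapped within 1 CPM, and the other groups stood apart. Tgfb1 rose by 0.63 in D2 against B6 (SE 0.050, adjusted p = 7.18e-09). It fell by 0.92 in B6-13D2 against B6 (adjusted p = 1.58e-10) and by 0.61 in D2-13B6 against D2 (adjusted p = 5.55e-09).

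Kitl (chr10:100015630-100100416) stood at 3.87, 4.16 and 3.64 CPM in B6, at 7.0, 6.84 and 6.51 in D2, at 1.35, 1.54 and 1.21 in B6-13D2 and at 6.03, 5.95 and 6.19 in D2-13B6. D2-13B6 lay below D2 without overlap, but close to it. Their difference of -0.17 (SE 0.097, adjusted p = 0.157) was not called. In B6-13D2 against B6 Kitl fell by 1.5 (SE 0.133, adjusted p = 2.43e-08), and D2-13B6 exceeded B6-13D2 by 2.14 (SE 0.121, adjusted p = 3.26e-11), which is 4.40-fold.

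Il6 (chr5:30013114-30019981) had the lowest level per kilobase, with 5 to 36 counts per library. It stood at 0.483, 0.630 and 0.600 CPM in B6, at 0.833, 1.00 and 1.05 in D2, at 0.346, 0.168 and 0.189 in B6-13D2 and at 0.685, 0.498 and 0.442 in D2-13B6. B6 and D2-13B6 overlapped. Il6 was called lower in B6-13D2 than in B6 (-1.27, SE 0.383, adjusted p = 0.00856). Its difference between D2 and B6 (0.75, SE 0.315, adjusted p = 0.0499) passed narrowly. It passed in 3 of 17 alternative analyses and missed the threshold without any library but B6-13D2 replicate 1, with adjusted p up to 0.148. Its fall in D2-13B6 against D2 (-0.81, SE 0.300, adjusted p = 0.0281) passed in 11 of 17. The libraries whose absence ended that call were D2 replicates 2 and 3 and D2-13B6 replicates 2 and 3, with adjusted p up to 0.100. At this depth these differences of Il6 lie near the limit of what can be shown.

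Counted together, 9 of the 10 genes were called higher in D2 than in B6, where 29.8% of the 17148 genes tested were called higher and 30.3% lower. Their median log2 fold change was 0.72 against 0.01 over all tested genes. None reached 1, a rise that 5.59% of tested genes made. In B6-13D2 against B6, all 9 genes other than Cxcr6 were called lower, where 32.9% of tested genes were lower and 25.4% higher, and 7 of the 9 fell by at least 1, which 11.0% of tested genes did. In D2-13B6 against D2, 7 of the 9 were called lower, where 29.7% of tested genes were lower and 27.6% higher, with Cxcl5 and Kitl as the exceptions. Of these, 3 (Ccl2, Ccl7 and Cxcl12) fell by at least 1, which 4.79% of tested genes did. In D2-13B6 against B6-13D2, all 9 genes other than Cxcr6 were called higher, where 38.4% of tested genes were, and 8 by at least 1, against 15.1% of tested genes. These comparisons share libraries, so their counts are not independent of each other.

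**Figure D2:**
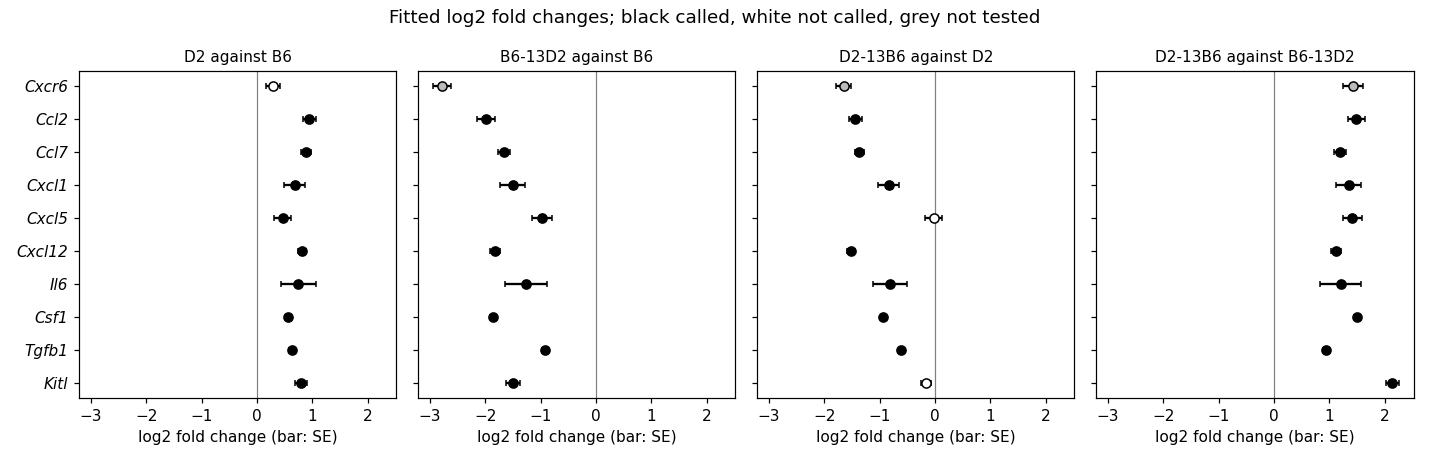
Fitted log2 fold change (horizontal axis) of each of the 10 genes in each comparison, with bars of 1 SE. Black points passed an adjusted p of 0.05, white points did not, and grey points (Cxcr6 in comparisons its choice used) were not tested; Cxcl5 and Kitl lie near 0 in D2-13B6 against D2.

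The difference between backgrounds was taken as the effect of the D2 segment on B6 minus its effect on D2, which equals congenic minus parental lines and so also holds anything the congenic libraries share. It was negative for all 9 genes tested, all of them called, where 33.4% of tested genes were called lower. It ranged from -1.0 (Cxcl5) to -3.43 (Ccl2). Ccl2, Ccl7, Cxcl1, Cxcl12, Il6, Csf1 and Tgfb1 were called lower in both congenic lines than in the strain of the same background, whichever segment was exchanged. Cxcl5 and Kitl were called lower in B6-13D2.

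The summed fibroblast markers moved with these genes. All 10 markers were called higher in D2 than in B6, all 10 lower in B6-13D2 than in B6 and 9 (all but Dcn) lower in D2-13B6 than in D2. The log2 ratios of their mean sums were 0.69, -1.64 and -0.99, and D2-13B6 exceeded B6-13D2 by 1.35. Those values lie inside the range of the members' own log2 fold changes in each comparison. Stem cell markers moved the other way in part: 7 of 8 were called lower in D2 than in B6, 7 of 8 higher in B6-13D2 than in B6 and 6 of 8 higher in D2-13B6 than in D2. All 9 macrophage markers were called higher in D2 than in B6 (29.8% of all tested genes were). In D2-13B6 against B6-13D2, 8 were (38.4%). The members rose in both comparisons too. In B6-13D2 against B6, 2 of the 9 were called higher (25.4%), and in D2-13B6 against D2, 7 (27.6%). None was called lower in these comparisons. The primitive endoderm markers (6 genes, Foxa2 too low to test) had mean sums of 27.9 CPM in B6 and 35.9 in D2. The mean sums were 12.8 CPM in B6-13D2 and 29.8 in D2-13B6. Cxcl5, Tgfb1 and Kitl had this order, as did the fibroblast markers Col3a1, Postn, Lum and Col6a3. Dab2 made up most of the sum (21.7 CPM in B6 and 29.7 in D2). Dab2 and Gata6 had this order, while Gata4, Sox17 and Sox7 had others. Gata4 was highest in B6 (3.29 CPM) and lowest in D2 (1.54). Among the 5 tested, D2 had 2 called higher and 1 called lower than B6. B6-13D2 had 2 called lower than B6 and none higher. D2-13B6 had 2 called higher and 1 called lower than D2. The endothelial markers (5 genes, Cdh5 too low to test) had mean sums of 51.9, 42.6, 21.2 and 34.4 CPM in B6, D2, B6-13D2 and D2-13B6. All 4 tested were called lower in B6-13D2 than in B6, where 32.9% of all tested genes were. Elsewhere they went both ways. In D2 against B6, Tek (-2.51) and Tie1 (-3.90) fell while Kdr (0.83) and Flt1 (0.65) rose. In D2-13B6 against D2, Tek rose (1.16) and Flt1 fell (-0.75), while Kdr and Tie1 were not called. The part of RNA from these cell types in the members' differences was not tested.

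**Figure D3:**
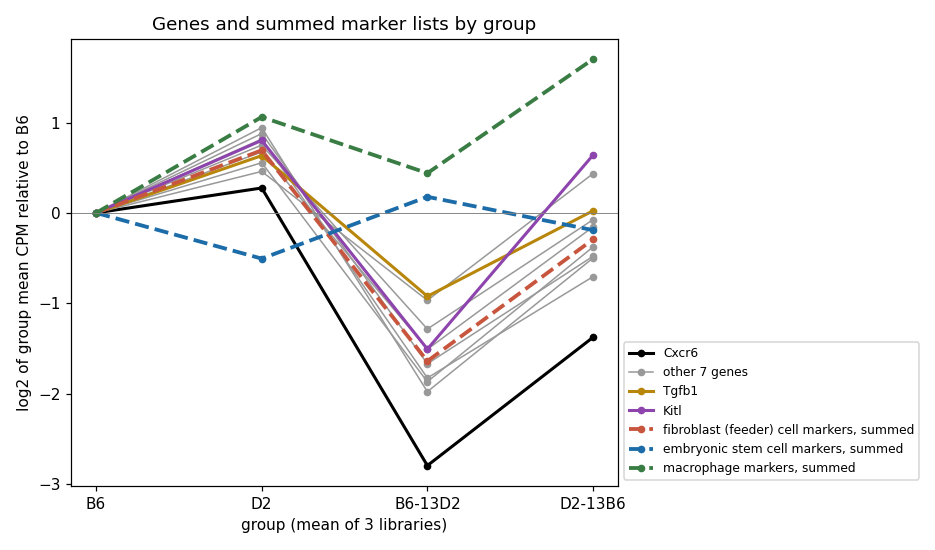
Group means of the 10 genes and of 3 summed marker lists on a log2 scale relative to B6 (vertical axis), for the 4 groups (horizontal axis). Solid lines are genes and dashed lines marker sums; the fibroblast sum runs among the members, Cxcr6 lies below it in both congenic groups, and the stem cell and macrophage sums take other courses.

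Set against the fibroblast sum, the members fell into different courses. Per 1000 CPM of that sum, Cxcl1 stood at 0.129 to 0.167 CPM in B6 and 0.132 to 0.168 in D2, with 0.142 to 0.174 in B6-13D2 and 0.158 to 0.171 in D2-13B6, so all 4 groups overlapped. Il6 likewise ran from 0.042 to 0.097 with all groups overlapping. Csf1 kept between 5.04 and 6.68 over all libraries. Cxcr6, chosen for its low level, stood at 0.842 to 0.906 in B6 and 0.628 to 0.717 in D2, with 0.314 to 0.533 in B6-13D2 and 0.371 to 0.440 in D2-13B6. It was low in both congenic lines on this scale too, and there the congenic lines overlapped. Cxcl12 stood at 1.29 to 1.64 in the parental libraries, 1.08 to 1.44 in B6-13D2 and 0.988 to 1.08 in D2-13B6. Ccl2 stood at 0.661 to 0.856 in the parental libraries, 0.416 to 0.703 in B6-13D2 and 0.545 to 0.639 in D2-13B6. Both were thus lower on this scale in D2-13B6 than in every parental library, while B6-13D2 overlapped B6. Ccl7 ran from 0.783 to 1.14, and D2-13B6 overlapped B6 and B6-13D2.

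Tgfb1 ran the other way. Per 1000 CPM of the fibroblast sum it stood at 1.64 to 1.92 CPM in the parental libraries, at 2.90 to 3.15 in B6-13D2 and at 2.21 to 2.33 in D2-13B6. Cxcl5 was also higher per fibroblast sum in the congenic libraries (0.387 to 0.605) than in the parental ones (0.236 to 0.343). On this scale Kitl stood apart in D2-13B6 alone, at 0.658 to 0.703 against 0.334 to 0.434 in the other 9 libraries. The fibroblast sum was mostly Col1a1 and Col1a2 (6428 and 2617 of 11040 CPM in B6), so the ratios rest mainly on them. Col3a1, Postn, Lum, Dcn and Col6a3 had higher means in D2-13B6 than in B6, as Kitl had. Col1a1, Col1a2, Thy1, Pdgfrb and Acta2 had lower ones. The ratios to the fibroblast sum show that genes and marker sum changed unequally, and they carry no test.

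Several receptors of these ligands took other courses than the ligands, as the plot of ligands and receptors shows. Kit, the receptor of Kitl, had means of 162 CPM in B6 and 76.6 in D2, with 242 in B6-13D2 and 93.5 in D2-13B6. It was thus lowest where Kitl was highest: it fell by 1.08 in D2 against B6 (SE 0.034, adjusted p = 3.26e-14) and rose by 0.58 in B6-13D2 against B6 (SE 0.032, adjusted p = 3.76e-11). The summed stem cell markers had the same group order as Kit, with means of 4435 CPM in B6 and 3122 in D2, with 5018 in B6-13D2 and 3885 in D2-13B6, and their part in the result was not tested. Csf1r, the receptor of Csf1 and itself a macrophage marker, had means of 2.52 CPM in B6 and 6.42 in D2, with 2.79 in B6-13D2 and 10.4 in D2-13B6. It was higher by 1.9 in D2-13B6 than in B6-13D2 (SE 0.099), and part of its reads had been divided with other genes. The summed level of the 9 macrophage markers, of which it is 1, was 38.0 to 41.6 CPM in B6, 79.8 to 87.9 in the D2 libraries, 51.5 to 55.8 in B6-13D2 and 125 to 134 in D2-13B6. Its group order was that of Csf1r, and its part in the result for Csf1r was not tested. The markers did not all move together. In B6-13D2 against B6, Cd68 rose by 1.00 while Csf1r was not called (0.15, adjusted p = 0.390). In D2-13B6 against D2, Csf1r rose by 0.70 while Cd68 was not called (0.14, adjusted p = 0.151).

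Cxcl16, the ligand of Cxcr6, had means of 2.81 ± 0.61 CPM in B6 and 3.89 ± 0.10 in D2, with 2.97 ± 0.37 in B6-13D2 and 5.78 ± 0.23 in D2-13B6 (SD, n = 3 each). It rose by 0.57 in D2-13B6 against D2 (SE 0.132, adjusted p = 0.00136), and did not pass in B6-13D2 against B6 (0.08, SE 0.155, adjusted p = 0.699). Its gene lies on chromosome 11, whose tested genes had a median of 0.39 in D2-13B6 against D2, and the part of that shift in its rise was not tested. Part of its reads had been divided with other genes. Of the receptors of Cxcl12, Cxcr4 fell in B6-13D2 against B6 (-0.61, SE 0.148, adjusted p = 0.00167), while Ackr3 fell in D2-13B6 against D2 (-0.88, SE 0.071, adjusted p = 7.97e-09). Neither passed in the respective other comparison.

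Il6st, the shared signalling subunit and a gene of chromosome 13, had means of 133 CPM in B6 and 167 in D2, with 85.7 in B6-13D2 and 139 in D2-13B6. It followed the order of Cxcl5 and Kitl. Il6ra, which binds Il6, had its lowest mean in B6 (6.38 CPM) and rose by 0.80 in B6-13D2 against B6 (SE 0.087, adjusted p = 3.63e-07), where Il6 fell. Tgfbr2 fell with Tgfb1 in both congenic lines, by 1.75 against B6 and by 0.95 against D2 (SE 0.053 and 0.046). Tgfbr1 and Tgfbr3 fell in B6-13D2 against B6 (-0.28 and -0.62), while in D2-13B6 against D2 Tgfbr1 was not called (0.09, adjusted p = 0.134) and Tgfbr3 rose by 0.13 (adjusted p = 0.0374). Ccr1, Ccr2 and Cxcr2, the receptors listed here for Ccl2, Ccl7, Cxcl1 and Cxcl5, were too low to test, with at most 16, 1 and 15.7 counts in a library.

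**Figure D4:**
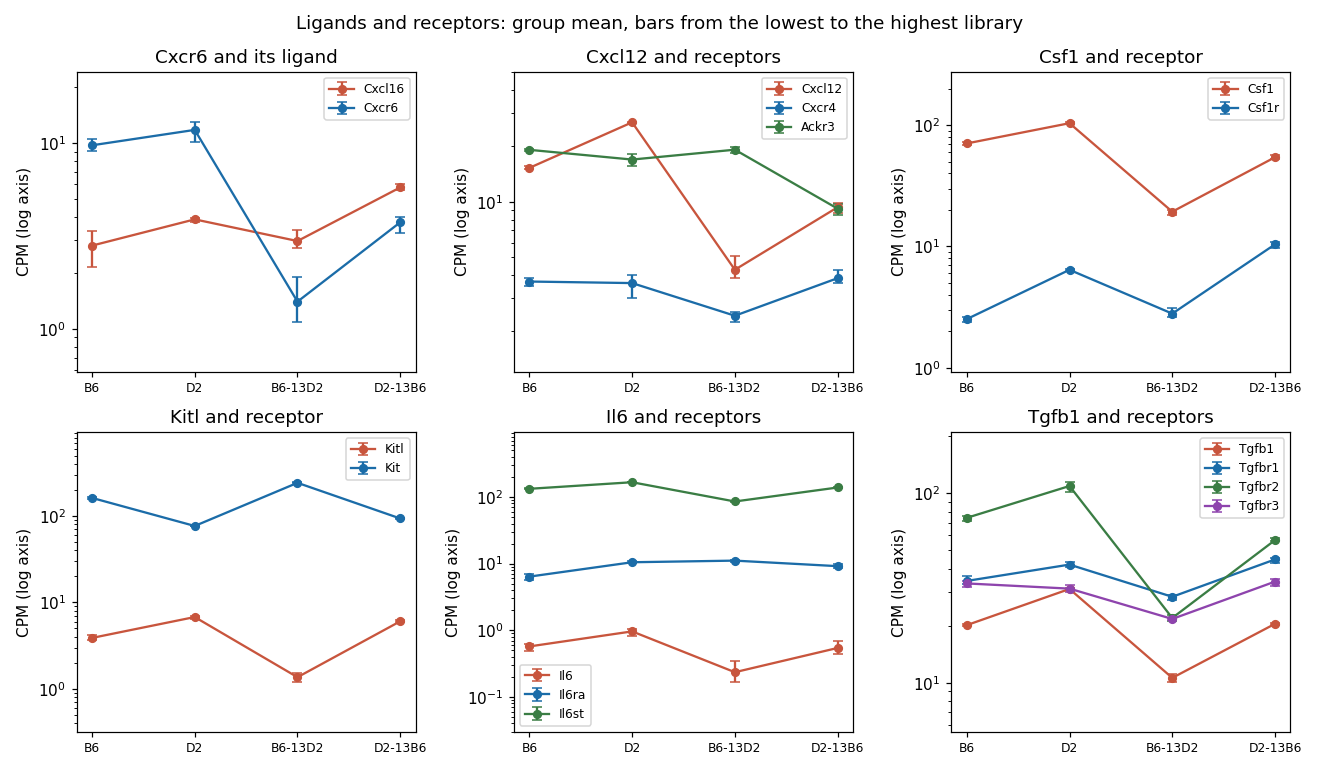
Group means (log axis, CPM) of ligands and their receptors in the 4 groups, with bars from the lowest to the highest library of each group. Kit is lowest where Kitl is highest. Cxcl16 is highest in D2-13B6, where the tested genes of its chromosome had a median log2 fold change of 0.39 against D2.

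Other genes of the same families were taken from lists, counted here without the members. Their counts stand beside the shares of all tested genes: 29.8% higher and 30.3% lower in D2 against B6, 25.4% and 32.9% in B6-13D2 against B6, and 27.6% and 29.7% in D2-13B6 against D2. Of 37 chemokine ligands, members included, 22 could be tested and 4 were at 0 in every library. Of the 17 tested that are no members, 12 rose and 1 fell in D2 against B6 (median log2 fold change 1.01), 1 rose and 9 fell in B6-13D2 against B6 (-0.54), and 6 rose and 5 fell in D2-13B6 against D2 (-0.21), which is near the shares of all genes. The medians over all tested genes lay between -0.04 and 0.01 in these comparisons. Cxcl14 had means of 143 CPM in B6 and 215 in D2, with 30.3 in B6-13D2 and 61.4 in D2-13B6, and its gene lies on chromosome 13. Cxcl10, an interferon-induced chemokine, fell in B6-13D2 against B6 (-1.07, SE 0.185) and was not called in D2-13B6 against D2 (0.27, adjusted p = 0.0947). Ccl9, also on chromosome 11 (median 0.39), rose in D2-13B6 against D2 by 1.05 (SE 0.138). There 7 of the 9 macrophage markers were called higher as well (median 0.70). The part of the chromosome or of these markers in the rise of Ccl9 was not tested. Ccl25, a chemokine of the thymus and gut, rose by 0.94 in that comparison (SE 0.125).

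Of 22 chemokine receptors 7 could be tested, Cxcr6 and 6 others. Of the 6, 2 (Cxcr4 and Xcr1) fell in B6-13D2 against B6, which is near the 32.9% of all tested genes, and 3 (Xcr1, Ackr3 and Ackr4) fell in D2-13B6 against D2, beside 29.7%. In D2 against B6, 2 of the 6 (Ccrl2 and Ackr4) were called higher and 1 (Ackr3, -0.17) lower, beside 29.8% and 30.3% of all tested genes. Ccrl2, an atypical receptor, was higher in D2 than in B6 by 1.92 (SE 0.298), and Ackr4, an atypical receptor that takes up chemokines, by 0.60 (SE 0.230). Part of the Ackr4 reads had been divided with other genes.

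Of 16 other cytokine and growth factor genes tested, 9 rose and 3 fell in D2 against B6 (median 0.50), beside 29.8% and 30.3% of all tested genes, 2 rose and 9 fell in B6-13D2 against B6 (-1.08), and 2 rose and 8 fell in D2-13B6 against D2 (-0.66). Tgfb2 and Tgfb3, the paralogues of Tgfb1, fell with it in both congenic lines. Tgfb3 had means of 101, 162, 26.6 and 60.2 CPM in B6, D2, B6-13D2 and D2-13B6 and fell by 1.93 and 1.43 in the congenic lines. Tgfb2 had means of 97.4, 142, 27.3 and 65.3 CPM and fell by 1.84 and 1.12. Thpo, thrombopoietin, ran the other way: its mean was 1.95 CPM in B6 and 0.252 in D2, and it rose in D2-13B6 against D2 by 1.33 (SE 0.347). Il33, an alarmin, fell in both congenic lines (-1.62 and -1.13).

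Among 16 genes that activate or answer TGF-beta, 12 fell and 2 rose in B6-13D2 against B6 (median -0.96), beside 32.9% and 25.4% of all tested genes, and 11 fell and 1 rose in D2-13B6 against D2 (-0.49), beside 29.7% and 27.6%. They include Ltbp1, which holds latent TGF-beta in the matrix, Thbs1, thrombospondin, which can release it, and Ltbp2, a matrix protein of the family of Ltbp1. Thbs1 fell by 1.75 and 1.34. Itgav, an integrin subunit that also activates it, fell by 1.17 in B6-13D2 against B6 and was not called in D2-13B6 against D2 (-0.10, adjusted p = 0.0703). Part of the reads of Itgav and Ltbp2 had been divided with other genes. Among 21 NF-kB pathway genes, 13 fell and 5 rose in B6-13D2 against B6 (median -0.31), and 11 fell and 2 rose in D2-13B6 against D2 (-0.25), beside the same shares of all tested genes. Ptgs2, the inducible cyclooxygenase, had means of 276, 361, 83.7 and 171 CPM in B6, D2, B6-13D2 and D2-13B6. Tnfrsf1a, a TNF receptor, Nfkbiz, a nuclear IkB protein, and Vcam1, an adhesion molecule, also fell in both congenic lines, by 1.34 to 1.39 against B6 and by 0.70 to 1.13 against D2. The fibroblast sum, with log2 ratios of -1.64 and -0.99 in the same comparisons, moved with the genes of these lists that fell, and its part in their changes was not tested. These lists were chosen with earlier results of these data known.

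The genes whose log2 CPM most resembled that of Cxcr6 over the 12 libraries, by Pearson's r among 14038 genes, were Copg1 (r = 0.995), Hist1h2ab (0.991), Serpinb9b (0.989), Kirrel (0.988) and Dusp6 (0.988). The 12 libraries fall into 4 groups, so a high r is common here: 1614 genes (11.5%) reached 0.9. Hist1h2ab, a histone gene of chromosome 13 with divided reads, had means of 5.58, 7.33, 0.837 and 2.43 CPM in B6, D2, B6-13D2 and D2-13B6, a course close to that of Cxcr6. Serpinb9b, a serpin gene of chromosome 13, and Dusp6, a phosphatase that acts on ERK, fell in both congenic lines, Serpinb9b by 1.29 and 0.76 and Dusp6 by 1.5 and 0.85. Copg1, a coatomer subunit gene with divided reads, kept the course at a smaller size (-0.37 and -0.25). Among the members, r with Cxcr6 ran from 0.95 for Cxcl12 down to 0.77 for Kitl and 0.71 for Cxcl5.

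Cxcr6 lies inside the span of Fyco1 (chr9:123789500-123851899, minus strand) on the opposite strand, with 0 exonic bases shared. Fyco1, which acts in vesicle transport, had means of 33.0 CPM in B6 and 40.6 in D2, with 23.7 in B6-13D2 and 26.8 in D2-13B6. It fell by 0.48 and 0.60 in the congenic lines (SE 0.064 and 0.060), less than the differences of Cxcr6. Whether the counting used the strand is not given in the sources used here, so reads from Fyco1 introns cannot be told apart from Cxcr6 reads. Of 8 tested genes near Cxcr6, 5 fell in each congenic line against the strain of its background, and 1 (Ppp2r3d) rose in B6-13D2 against B6. Of all tested genes, 32.9% fell in B6-13D2 against B6 and 29.7% fell in D2-13B6 against D2. The neighbour with the largest fall was the chemokine receptor gene Xcr1, whose start lies 55.6 kilobases away. It fell by 2.62 in B6-13D2 against B6 (SE 0.547, adjusted p = 0.000488) and by 2.52 in D2-13B6 against D2 (SE 0.463, adjusted p = 0.000151), from means of 0.675 and 0.931 CPM to 0.107 and 0.166.

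**Figure D5:**
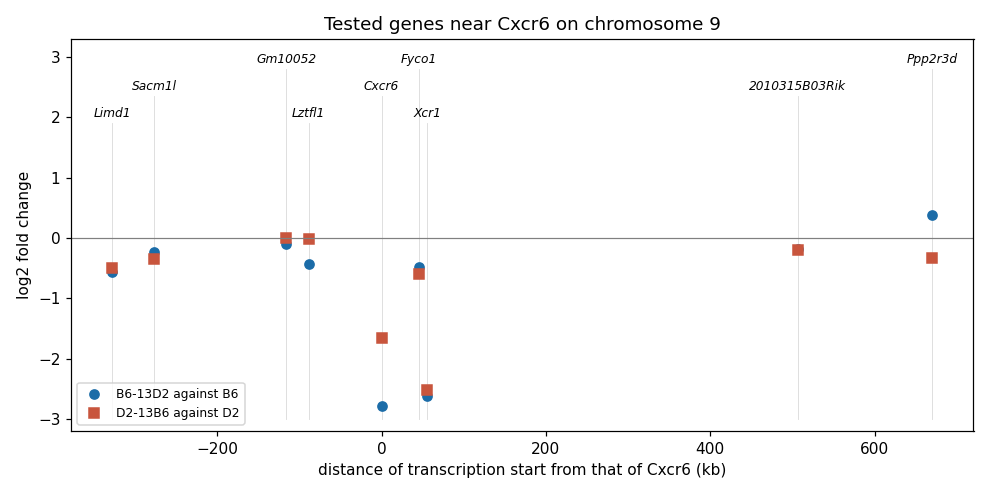
Log2 fold change (vertical axis) of Cxcr6 and 8 tested genes near it in each congenic line against the strain of its background, by distance of the transcription start from that of Cxcr6 (horizontal axis, kilobases). Circles are B6-13D2 against B6 and squares D2-13B6 against D2; Cxcr6 and Xcr1 lie lowest.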

How the data were processed

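The authors deposited 1 table of expected counts per Ensembl gene and library, from EMASE per the file's title. The submitters' processing notes name Bowtie 1.0.0, edgeR 3.34.1 and mm10, with no role. The annotation, strand setting and filters are not given in the sources used here. Of 43346 gene IDs, 42462 were matched to GENCODE M21 (GRCm38), which gave symbols and positions. The 884 others held 0.361% of the counts, and 0 columns lacked a sample. Expected counts divide reads that fit several genes, so genes with near-identical copies are uncertain.

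Counts were rounded to whole numbers and fitted in R 4.3.3 with edgeR 4.0.16: filterByExpr (minimum count 10), TMM, 4 group means, all 12 libraries, and the quasi-likelihood test with Benjamini-Hochberg adjustment over 17148 genes, called at 0.05. SE was taken from the fold change and its F statistic (absolute log2 value over the root of F). Cxcr6 was not tested in any comparison with a congenic line. The members and lists were chosen with earlier results of these data known. Besides the members, the text names their receptors, Cxcl16, up to 4 called genes a list with the largest fold change and a mean of at least 1 CPM, the 5 genes most like Cxcr6 (log2 CPM, prior count 2) and the genes overlapping or nearest to it (up to 5 a side). Xcr1 and Ppp2r3d were picked out from these after their values were seen. One item is not reported here. Alternatives were DESeq2 1.42.0, RLE factors, no filter, a mean of at least 1 CPM, the replicate block, fits of just the compared libraries, and each library left out in turn. No libraries of a group agreed within sampling noise (chi-square per degree of freedom 1.97 to 8.98).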

Additional observations from a re-analysis of the deposited data

Results flagged for a closer look

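The change from B6 to B6-13D2 less the change from D2-13B6 to D2 (log2 units) is given for 45 named genes whose difference was past an adjusted p of 0.05 in edgeR, or, for Cxcr6 (-4.44), was not tested. Of all tested genes, 33.4% were called lower on this measure. Of the 17148 genes tested, 11059 were called in either direction, and 48.2% of those were higher. The measure equals congenic minus parental lines and holds whatever the congenic libraries share. Cxcr6 and the genes most like it were chosen for their pattern over these libraries, and the list genes for large fold changes, so passing the threshold is no independent evidence.

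Among the members it was -3.43 for Ccl2, -3.03 for Ccl7, -2.35 for Cxcl1, -1.0 for Cxcl5, -3.34 for Cxcl12, -2.08 for Il6, -2.80 for Csf1, -1.53 for Tgfb1 and -1.67 for Kitl. Among other ligands and cytokines it was -0.80 for Cxcl10, -4.05 for Cxcl14, -3.35 for Tgfb3, -2.96 for Tgfb2 and -2.74 for Il33, and positive for Cxcl16 (0.64), Ccl9 (1.04), Ccl25 (0.60) and Thpo (1.78). The tested genes of chromosome 11, which holds Cxcl16, Ccl9, Ccl2 and Ccl7, had a median 0.44 above the other autosomes on this measure, and its part in their values was not tested. Among receptors it was -1.26 for Ccrl2, -0.88 for Ackr3, -0.51 for Cxcr4, -1.04 for Ackr4, -2.70 for Tgfbr2, -0.89 for Il6st, -0.19 for Tgfbr1 and -0.50 for Tgfbr3. It was -5.14 for Xcr1 (SE 0.715), at low means of 0.107 CPM in B6-13D2 and 0.166 in D2-13B6. It was positive for Csf1r (0.84), Kit (0.87) and Il6ra (0.60). In the NF-kB and TGF-beta lists it was -2.80 for Ptgs2, -2.09 for Tnfrsf1a, -2.19 for Nfkbiz, -2.47 for Vcam1, -2.90 for Ltbp1, -3.09 for Thbs1, -2.79 for Ltbp2 and -1.27 for Itgav. Of the genes most like Cxcr6 and its overlapping gene, it was -0.62 for Copg1, -4.30 for Hist1h2ab, -2.05 for Serpinb9b, -1.20 for Kirrel, -2.36 for Dusp6 and -1.08 for Fyco1.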

How the results depend on the processing

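Over all alternatives, the number of members called ran from 7 to 10 of 10 in D2 against B6, 8 to 9 of 9 in B6-13D2 against B6, 6 to 7 of 9 in D2-13B6 against D2, 8 to 9 of 9 in D2-13B6 against B6-13D2 and 8 to 9 of 9 for the difference between backgrounds; a mean of at least 1 CPM removed Il6 from the test. Of 814 tested values of single members, 779 kept direction and side of the threshold. The reversed ones were those of Cxcl5 in D2-13B6 against D2, 0.060 without D2 replicate 1 and 0.03 without D2-13B6 replicate 3, in a range of -0.11 (without D2 replicate 3) to 0.060 when 1 library was left out. Without B6-13D2 replicate 1, Cxcr6 moved to -3.07 in B6-13D2 against B6, to 1.70 in D2-13B6 against B6-13D2 and to -4.73 for the difference between backgrounds; the cause was not tested. Without B6 replicate 3, the library of another line name, 8 members were called in D2 against B6.

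With the replicate number as a block, 9 members were called in D2 against B6, where Cxcr6 gained the call (adjusted p = 0.0284) and Il6 lost it (0.0687); 9, 7 and 9 were called in the next comparisons and 9 for the difference between backgrounds. Libraries of the same number did not deviate together (mean r -0.011 over 18 pairs, -0.125 to 0.068), and 4 of 12 correlated best with their own number, so the numbers were not taken as pairs.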
